A study of Drosophila melanogaster with 16 samples.

Results

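The vacuolar H+-ATPase (V-ATPase) of Drosophila melanogaster was followed here in RNA of whole adult testes of 3 genotypes. Every probe set of the array that carries 1 gene symbol, with that symbol starting with Vha, was taken, which gave 32 probe sets for 29 genes among 13966 probe sets for 10825 genes. The reference annotation lists 33 Vha genes. Vha68-1, Vha68-2, Vha16-3 and Vha100-3 had no probe set chosen by this rule and were not analysed here, so that subunit A is represented by Vha68-3 and no pair of Vha68 paralogs could be compared. Vha16-1, VhaPPA1-1 and VhaSFD have 2 probe sets each, called the brighter and the dimmer below.

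The arrays were 5 of wild type, 5 of bgcn mutants and 6 of Os+bgcn, which the labels give as the bgcn mutant with Os added, and the submitters call all of them biological replicates. A wild-type or Os+bgcn sample pooled 150 testes and a bgcn sample 750, so the genotype and the size of the pool cannot be told apart for bgcn. The labels name no allele, strain, driver or age other than adult, and the way in which Os was added is not stated in the texts used here. The gene bgcn (benign gonial cell neoplasm) is needed for dividing spermatogonia to stop and differentiate, and its loss leaves testes filled with early germ cells. The gene os, an older name of unpaired (upd1), encodes a ligand of the JAK-STAT pathway that maintains the stem cells of the testis tip.

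The V-ATPase is a rotary pump that uses ATP to move protons into lysosomes, endosomes and secretory vesicles, or across the membrane of some epithelial cells. Its V1 sector, outside the membrane, hydrolyses ATP: subunits A and B form the catalytic head, D and F the rotor stalk, E and G the outer stalks, and C and H join V1 to the membrane. Its V0 sector carries the protons: subunit a holds the path through the membrane, c and c'' form the rotating ring, d caps the ring, and e and the accessory protein Ac45 are small or associated membrane parts. In the fly, several subunits are each encoded by a family of numbered genes, among them broadly expressed members and members known for expression in the testis, while in mammals the pump is known for acidifying the acrosome of the sperm.

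The titles of the arrays were checked against marker genes. The signals of the spermatid markers on the array, 20 of the 28 listed, summed to between 193756 and 216894 on the wild-type arrays, to between 574 and 1532 on the bgcn arrays and to between 632 and 1194 on the Os+bgcn arrays. One label of the wild-type samples, on RNA extraction, mentions bgcn testes, and this difference goes with the titles, which were used. Early germ cell markers (10 of 11 on the array) summed to 363 to 531, 3524 to 3944 and 6921 to 7742 in the same order. Accessory gland markers (15 of 20 on the array) ranged from 7801 to 29571 in wild type, from 4366 to 25560 in bgcn and from 434 to 3492 in Os+bgcn, and midgut markers (17 of 22) from 762 to 957, from 1325 to 17505 and from 647 to 1130. No marker of these lists was at 0 on all arrays. Malpighian tubule markers (10 of 14 on the array), a tissue rich in this pump, summed to 1561 to 1752 in wild type and to 840 to 1224 and 824 to 1184 in the mutants. Hemocyte and muscle markers summed to 1849 to 2394 and to 3357 to 3782 in wild type, and their mutant values are given further on with the comparison between mutants. The part of these cell types in the Vha differences from wild type was not tested. Of the bgcn arrays, arrays 1 and 2 had the most accessory gland signal (25560 and 18604) and array 4 the most midgut signal (17505). In whole testes, fewer cells of a type and less RNA per cell cannot be told apart.

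Signals are on the scale of the array software, in arbitrary units, and each array had been brought to a trimmed mean of 148.4 to 149.3. Array medians were 56.2 to 59.4 for wild type, 67.8 to 74.2 for bgcn and 66.95 to 74.5 for Os+bgcn arrays. Differences below are between group means of log2(signal + 18.8), a scale that compresses differences at low signal, so that the value of a gene near 0 in 1 group depends on the constant added. Testing required that a probe set exceed a signal of 42.9 on 5 or more of the 16 arrays, and a difference passed at a limma p, adjusted over all 10422 tested probe sets, under 0.05. Of the Vha probe sets, 30 were tested. Vha14-2, Vha36-2 and Vha68-3 met this filter through the wild-type arrays alone, so a lower level in the mutants was built into their being tested. VhaAC39-2 exceeded 42.9 on 1 bgcn and 3 Os+bgcn arrays and so also needed its wild-type arrays to be tested. The differences of these genes are given without tests, with the range over the other settings, and the counts that follow are descriptions.

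In bgcn, 16 of the 30 tested Vha probe sets rose against wild type and 11 fell on the deposited scale (53.3% and 36.7%), where 47.2% and 22.6% of all tested probe sets did so, but with arrays centred on ribosomal protein genes none rose and 21 fell. In either direction, 69.8% of all tested probe sets passed. The median difference of the 30 was 0.62 and that of all tested probe sets 0.46. In Os+bgcn, 13 rose and 12 fell (43.3% and 40%, against 47.3% and 24.2% of all), with a median of 0.16 against 0.43 for all and 71.4% of all passing in either direction, and with ribosomal centring none rose and 18 fell. Both comparisons use the same wild-type arrays. Without Vha14-2, Vha36-2 and Vha68-3, the falls on the deposited scale numbered 8 in bgcn and 9 in Os+bgcn, of 27. At least 2-fold falls that passed numbered 9 in each mutant, 6 of them without those 3 genes, where 17.4% of all tested probe sets fell so in bgcn and 18.0% in Os+bgcn. VhaAC39-2, which needed its wild-type arrays to be tested, is still counted among the 8, the 9 of 27 and the 6. In bgcn the arrays did not overlap with wild type for 12 Vha probe sets above it and 11 below it (35.3% and 19.3% of all), and in Os+bgcn for 11 and 11 (37.9% and 20.1% of all).

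The scaling sets which Vha genes can be said to rise. Ribosomal protein genes were themselves far higher in the mutants on the deposited scale, with median differences, over 37 genes, of 2.02 in bgcn and 1.62 in Os+bgcn. Centring the arrays on them moved the median of all tested probe sets from 0.46 to -1.56 in bgcn and from 0.43 to -1.07 in Os+bgcn. Probe sets that rose then made up 3.11% of those that passed in bgcn and 13.2% in Os+bgcn, against 67.6% and 66.1% on the deposited scale and 59.1% and 56.7% with arrays centred on their medians. Under ribosomal centring 15 of the 16 Vha probe sets that had risen in bgcn turned below wild type, all but VhaAC45 (0.37), and 12 of the 13 in Os+bgcn, all but VhaAC39-1 (0.005). The 11 that fell in bgcn fell under all 27 alternatives, and 11 of the 12 in Os+bgcn under all in which they were tested. The exception was the dimmer probe set of VhaSFD. Both counts include Vha14-2, Vha36-2 and Vha68-3, whose lower level was built into the testing. Without them the falls numbered 8 in bgcn and 9 in Os+bgcn, the latter with the same exception, and both still with VhaAC39-2. Centring of the arrays cancels in the log2 ratio of 2 paralogs on the same array, whereas the pseudocount does not where a paralog is dim.

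**Figure D1:**
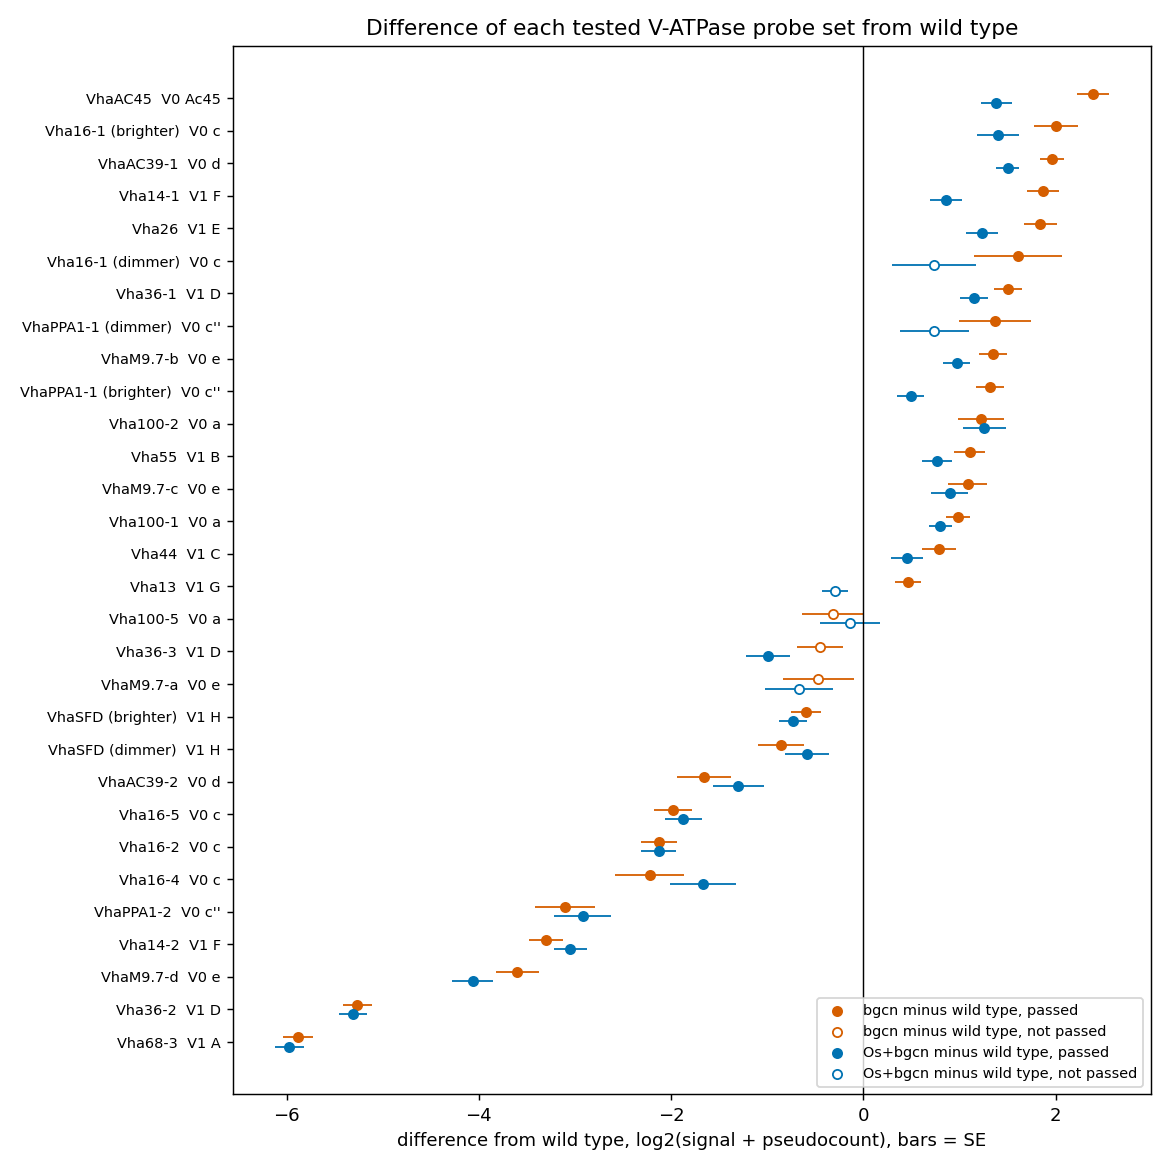
The horizontal axis is the difference from wild type in log2(signal + pseudocount) for each of the 30 tested Vha probe sets, with bars for the standard error, bgcn in orange and Os+bgcn in blue; filled points passed, and the letters after a gene give its sector and subunit. Vha68-3, Vha36-2, VhaM9.7-d, Vha14-2 and VhaPPA1-2 lie furthest below 0 and VhaAC45 and Vha16-1 (bgcn) and VhaAC39-1 (Os+bgcn) furthest above. With ribosomal centring all values that rose turned below 0 other than VhaAC45 in bgcn (0.37) and VhaAC39-1 in Os+bgcn (0.005).

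Subunit D, part of the V1 rotor stalk, is encoded by 3 genes that behaved differently. Vha36-2 (probe set 147073_at, chromosome arm 2R) had signals of 939, 924, 909.6, 965 and 969 on the wild-type arrays, of 10.3, 5.4, 3.5, 4.5 and 8.0 on the bgcn arrays, and of 4.4 to 8.9 with a median of 4.85 on the Os+bgcn arrays. Every mutant array was far below every wild-type array and below the signal needed for testing. The difference was -5.26 in bgcn, between -7.32 and -3.64 in the other settings, and -5.31 in Os+bgcn, between -7.49 and -3.66. Vha36-1 (152480_at, 2R) had signals of 249, 209, 182, 221 and 185 in wild type, of 488, 546, 772, 738 and 625 in bgcn, and of 417 to 649 with a median of 462 in Os+bgcn. The mutants overlapped with each other but not with wild type. Both lay above wild type, by 1.50 ± 0.15 (SE, adjusted p = 2.2e-08) and 1.15 ± 0.14 (4.7e-07), values that turned to -0.52 and -0.34 with ribosomal centring. Vha36-3 (144407_at, on the X) had signals of 67.4, 103, 87.0, 96.8 and 135 in wild type, of 109, 57.7, 50.4, 46.5 and 75.8 in bgcn, and of 18.3 to 59.2 with a median of 40 in Os+bgcn. Only the Os+bgcn arrays were all below wild type. Vha36-3 differed there by -0.99 ± 0.23 (adjusted p = 0.00066), while the bgcn value of -0.45 did not pass (adjusted p = 0.10) but passed without bgcn array 1 (-0.60, adjusted p = 0.029), with quantile normalization (-0.69, adjusted p = 0.012) and with median centring (-0.70, adjusted p = 0.013).

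Subunit F, the small partner of D in the rotor stalk, is encoded by Vha14-1 and Vha14-2. Vha14-2 (149368_at, 3R) had signals of 214, 205, 245, 189 and 166 in wild type, of 4.7, 3.0, 2.9, 4.3 and 3.4 in bgcn, and of 3.9 to 19.6 with a median of 5.8 in Os+bgcn. All mutant arrays were again at the bottom of the scale, and the differences were -3.30 (-5.81 to -1.82 in the other settings) and -3.05 (-4.83 to -1.74). Vha14-1 (143625_at, 2R) had signals of 389, 292, 325, 354 and 354 in wild type, of 1443, 1037, 1206, 1273 and 1582 in bgcn, and of 478 to 909.9 with a median of 611 in Os+bgcn. The 3 groups did not overlap, bgcn being highest. Its differences from wild type were 1.87 ± 0.17 (adjusted p = 5e-09) and 0.86 ± 0.16 (8.1e-05), and -0.15 and -0.64 with ribosomal centring.

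Subunit A, the catalytic subunit, was measured through Vha68-3 (146306_at, 2L). Its signals were 1137, 1199, 1391, 1342 and 1383 in wild type, 2.2, 3.1, 1.4, 1.9 and 8.6 in bgcn, and 1.4 to 2.6 with a median of 2.1 in Os+bgcn. All mutant arrays were at the bottom of the scale, with differences of -5.88 for bgcn (-8.87 to -4.12 in the other settings) and -5.97 for Os+bgcn (-9.34 to -4.14).

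Subunit c, the proteolipid of the membrane ring, was measured through 4 of its 5 annotated genes. Vha16-2 (148578_at, 3L) had signals of 351, 337, 292, 319 and 317 in wild type, of 40.8, 70.5, 66.7, 62.2 and 61.0 in bgcn, and of 33.3 to 83.5 with a median of 61.8 in Os+bgcn. Vha16-4 (147341_at, 2R) had signals of 264, 225, 243, 264 and 331 in wild type, of 24.0, 142, 38.7, 21.8 and 31.9 in bgcn, and of 20.9 to 155 with a median of 73.7 in Os+bgcn. Vha16-5 (146189_at, 2L) had signals of 503, 393, 481, 482 and 447 in wild type, of 107, 120.4, 89.3, 85.7 and 115 in bgcn, and of 63.8 to 164 with a median of 129.9 in Os+bgcn. For these 3 genes no mutant array reached a wild-type array, and bgcn array 2 stood above the other bgcn arrays for Vha16-4. In that order, their differences were -2.13 ± 0.19, -2.22 ± 0.36 and -1.98 ± 0.20 in bgcn (adjusted p = 3.5e-09, 1.4e-05 and 2.6e-08), and -2.13 ± 0.18, -1.67 ± 0.34 and -1.87 ± 0.19 in Os+bgcn (adjusted p = 1.5e-09, 0.0002 and 2.6e-08).

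Vha16-1 went the other way on the deposited scale. Its brighter probe set (141528_at, 2R) had signals of 1304, 920.3, 954, 954 and 1075 in wild type, of 5817, 4549, 3001, 2921 and 5620.3 in bgcn, and of 1594 to 3656 with a median of 2957 in Os+bgcn. All mutant arrays lay above the wild-type arrays, with differences of 2.00 ± 0.23 (adjusted p = 1.7e-07) for bgcn and 1.40 ± 0.22 (9.6e-06) for Os+bgcn, values that came to -0.015 and -0.094 with ribosomal centring. The dimmer probe set (142120_at) had signals of 60.9 to 104 in wild type, of 781, 530.5, 93.2, 233 and 149.5 in bgcn and of 48.5 to 248 in Os+bgcn. Its highest arrays were bgcn arrays 1 and 2, those with the most accessory gland signal, whose part in this was not tested. Its bgcn difference of 1.61 ± 0.46 (adjusted p = 0.0039) became 0.82 (adjusted p = 0.078) without those 2 arrays, while the brighter probe set kept 1.81 (adjusted p = 5.2e-06). In Os+bgcn the dimmer probe set overlapped with wild type and did not pass (0.74 ± 0.44, adjusted p = 0.14). It passed there without Os+bgcn replicate 2 (0.99, adjusted p = 0.045). The Os+bgcn rise of Vha16-1 with all arrays thus rests on the brighter probe set.

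Subunit c'', the other proteolipid of the ring, is encoded by VhaPPA1-1 and VhaPPA1-2, which lie on 3R with 1 protein-coding gene between them. VhaPPA1-2 (149926_at) had signals of 533, 509, 601, 572 and 465 in wild type, of 132, 48.7, 16.4, 61.2 and 19.9 in bgcn, and of 27.8 to 88.6 with a median of 53.5 in Os+bgcn. Every mutant array was below every wild-type array, with differences of -3.10 ± 0.31 for bgcn (adjusted p = 2.3e-08) and -2.92 ± 0.30 for Os+bgcn (2.6e-08). The brighter probe set of VhaPPA1-1 (142158_at) had signals of 646, 609, 376, 406 and 452 in wild type, of 1365, 1255, 1125, 1287 and 1189 in bgcn, and of 564 to 805 with a median of 695 in Os+bgcn. Here the bgcn arrays were clear of both other groups, which overlapped. Its differences were 1.32 ± 0.15 in bgcn (adjusted p = 1.3e-07) and 0.49 ± 0.14 in Os+bgcn (0.0043), and -0.70 and -1.003 with ribosomal centring. Median centring took the Os+bgcn value to 0.21 (adjusted p = 0.19). The dimmer probe set (141828_at) had signals of 79.2 to 164 in wild type, of 765, 559.9, 106, 222 and 240.2 in bgcn and of 121 to 327 in Os+bgcn. As for the dimmer probe set of Vha16-1, bgcn arrays 1 and 2 were highest, and its bgcn difference of 1.37 ± 0.37 (adjusted p = 0.0029) became 0.67 (adjusted p = 0.056) without them. Its Os+bgcn difference of 0.74 ± 0.36 did not pass (adjusted p = 0.072), with arrays overlapping wild type. It passed in some other settings, among them without bgcn arrays 1 and 2 (0.74, adjusted p = 0.012).

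Subunit d, which sits between the ring and the rotor stalk, is encoded by VhaAC39-1 and VhaAC39-2. VhaAC39-2 (150428_at, 3R) had signals of 123, 105, 125, 152 and 193 in wild type, of 9.7, 81.5, 14, 36.6 and 37.0 in bgcn, and of 28 to 58.3 with a median of 46.7 in Os+bgcn. VhaAC39-1 (154279_at, on the X) had signals of 221, 252, 218, 158 and 239 in wild type, of 807, 894, 904, 969.7 and 882 in bgcn, and of 559.6 to 747 with a median of 625 in Os+bgcn. Both genes separated the mutant arrays from wild type without overlap, in opposite directions on the deposited scale. VhaAC39-2 met the testing filter only with its wild-type arrays, so its differences are given without a test. They were -1.66 ± 0.28 in bgcn and -1.30 ± 0.27 in Os+bgcn, and the other settings without ribosomal centring gave -2.32 to -0.97 and -1.64 to -0.83. VhaAC39-1 rose by 1.96 ± 0.13 (adjusted p = 2.4e-11) and 1.50 ± 0.12 (6.4e-10), values that came to -0.060 and 0.005 with ribosomal centring.

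Subunit e, a small hydrophobic protein of V0, has 4 genes on the array. VhaM9.7-d (150038_at, 3R) had signals of 933, 944, 892, 794 and 714 in wild type, of 86.8, 42.9, 58.8, 54.5 and 32.2 in bgcn, and of 21.9 to 69.8 with a median of 26.9 in Os+bgcn, with differences of -3.60 ± 0.22 (adjusted p = 1.4e-11) and -4.06 ± 0.21 (8.6e-13). VhaM9.7-b (149187_at, 3L) had signals of 452, 454, 399, 384 and 334 in wild type, of 1259, 1257, 1036, 901 and 865 in bgcn, and of 670.0 to 1052 with a median of 775 in Os+bgcn. VhaM9.7-c (154011_at, 3L) had signals of 55.1, 89.6, 45.8, 64.5 and 30.1 in wild type, of 144, 177, 116, 146 and 109 in bgcn, and of 102 to 149 with a median of 109.7 in Os+bgcn. The first of these 3 genes was lower and the other 2 higher on every mutant array than on any wild-type array. VhaM9.7-b rose by 1.35 ± 0.14 (adjusted p = 6.1e-08) and 0.97 ± 0.14 (2.7e-06), and VhaM9.7-c by 1.09 ± 0.20 (8.2e-05) and 0.90 ± 0.19 (0.00035), and all 4 values turned negative with ribosomal centring, to between -0.93 and -0.53. VhaM9.7-a (148161_at, 3L) had overlapping signals, with wild-type arrays at 43.7 to 242, bgcn arrays at 35.1 to 97.2 and Os+bgcn arrays at 22.9 to 93.5, and its differences of -0.47 and -0.67 did not pass (adjusted p = 0.27 and 0.097). The Os+bgcn value passed with quantile normalization (-0.84, adjusted p = 0.038) and with median centring (-0.955, adjusted p = 0.023). It also passed without Os+bgcn replicate 1 or 3 or wild-type replicate 2. With ribosomal centring the gene fell in both mutants (-2.49 and -2.17).

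Subunit a, the largest membrane subunit, which also helps to place the pump on a given membrane, was the family without a fall that passed on the deposited scale. Vha100-1 (153997_at, 3R) had signals of 213, 231, 201, 213 and 278 in wild type, of 449, 496, 534, 515 and 358 in bgcn, and of 363 to 448 with a median of 412 in Os+bgcn. Vha100-2 (142661_at, 3R) had signals of 87.3, 139, 105, 90.5 and 108 in wild type, of 127, 204, 422, 365 and 345 in bgcn, and of 242 to 358 with a median of 265 in Os+bgcn. A single bgcn array lay within the wild-type range for Vha100-2, and otherwise the mutants were above wild type for both genes. Vha100-1 rose by 0.99 ± 0.13 (adjusted p = 7.7e-07) and 0.80 ± 0.12 (6.2e-06) and Vha100-2 by 1.22 ± 0.24 (0.00011) and 1.26 ± 0.23 (4.7e-05), and with ribosomal centring the values were -1.03, -0.70, -0.80 and -0.24. Vha100-5 (146249_at, 2L) had overlapping signals, with wild-type arrays at 17.5 to 111, bgcn arrays at 27.9 to 103 and Os+bgcn arrays at 45.2 to 92.3, and did not pass (-0.32 and -0.14, adjusted p = 0.39 and 0.71), whereas with ribosomal centring it fell (-2.34 and -1.63). Vha100-4 (142662_at, 3R), next to Vha100-2 on the chromosome, did not exceed 53.7 on any array and was not tested.

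**Figure D2:**
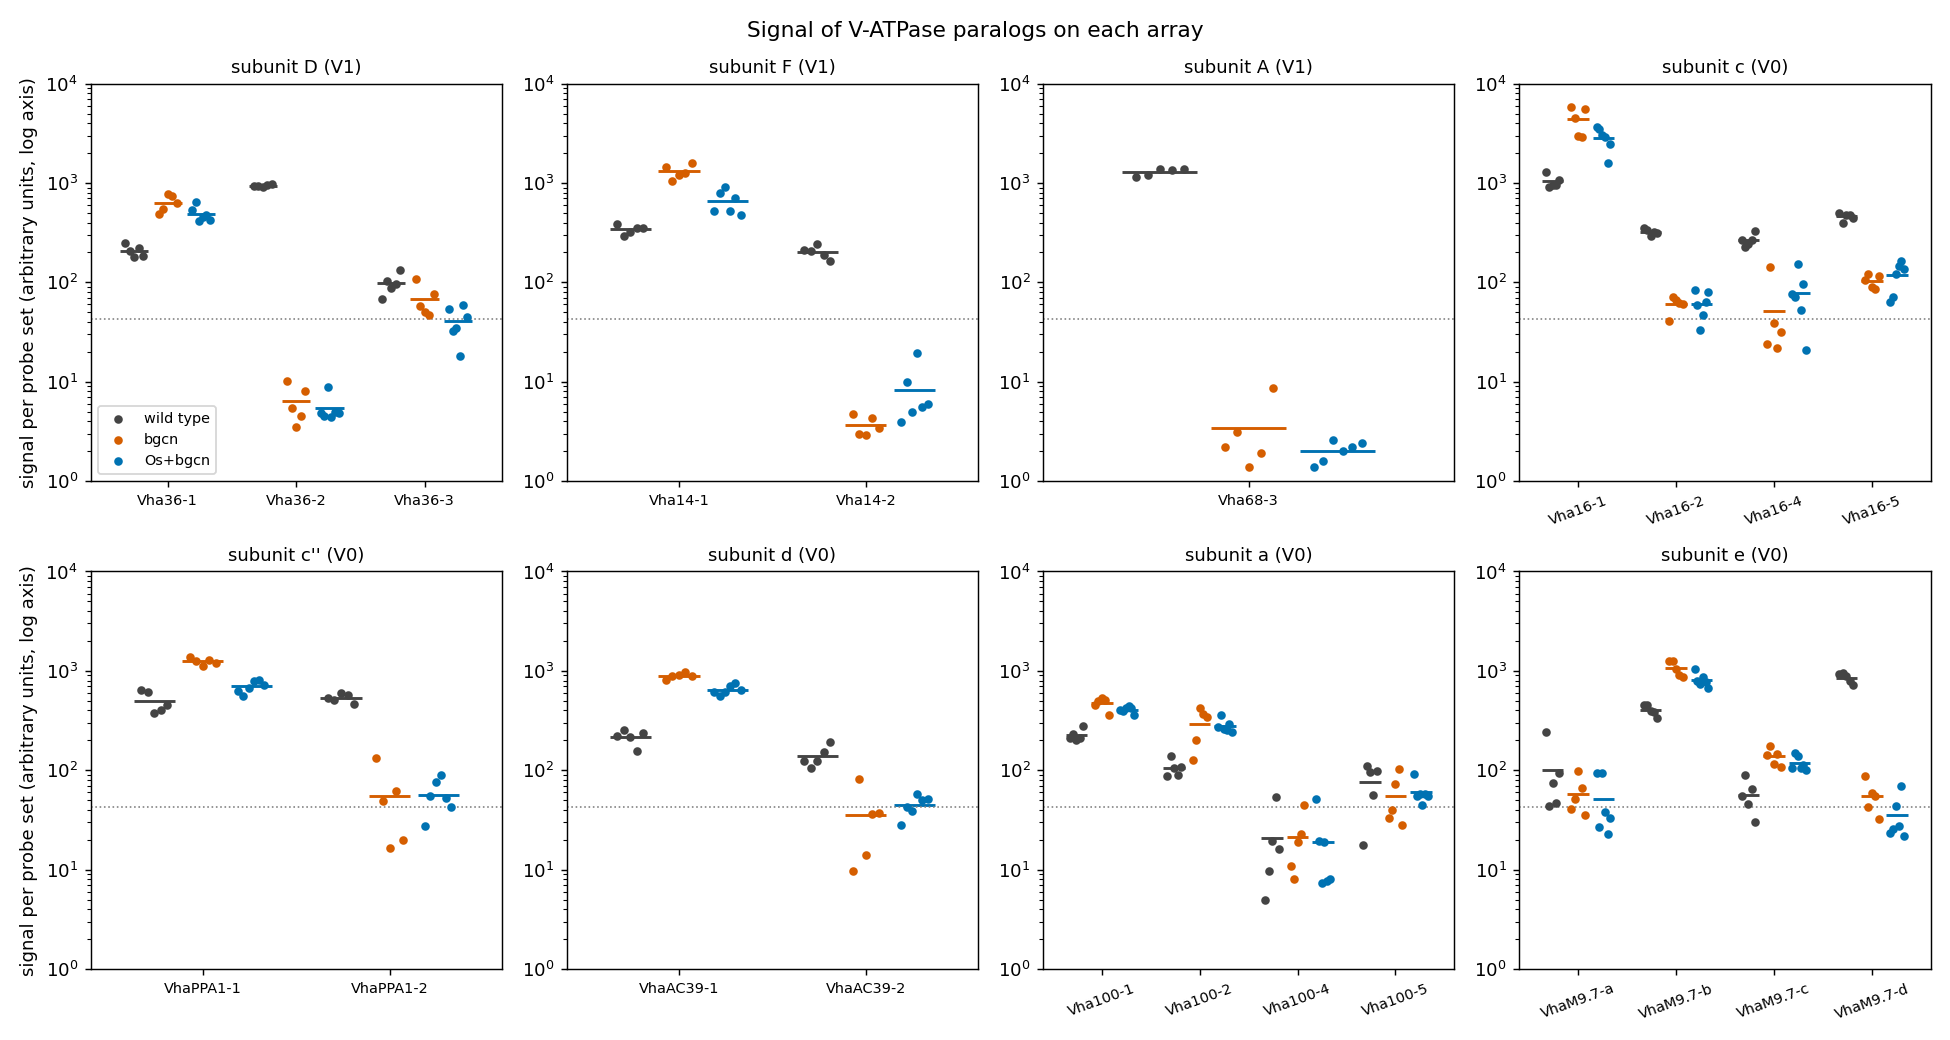
Each panel is a subunit, with the signal of each paralog on each array on a log axis in arbitrary units; points are arrays (5 wild type, 5 bgcn, 6 Os+bgcn), horizontal bars the group means, and the dotted line the signal of 42.9 used for testing. Vha36-2, Vha14-2 and Vha68-3 lie under the dotted line on all mutant arrays, and in the panels of D, F, c, c'' and d the gene numbered 1 lies higher in the mutants, a direction that turned or vanished with ribosomal centring.

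VhaAC45 (153649_at, 2R), the accessory protein Ac45, had signals of 144, 196, 112, 129.7 and 156 in wild type, of 1031, 821, 864, 945 and 603 in bgcn, and of 322 to 522 with a median of 415 in Os+bgcn. The 3 groups did not overlap. On the deposited scale no other Vha probe set rose further in bgcn, by 2.39 ± 0.17 (adjusted p = 1e-10), and its rise in Os+bgcn was 1.38 ± 0.16 (1.6e-07), against 0.37 and -0.11 with ribosomal centring. VhaAC45RP (150875_at, 3R), its relative by name, was not tested, being above 42.9 on 4 arrays. Its wild-type signals were 101, 111, 27.1, 168 and 44.6, those of the bgcn arrays 16.1, 18.4, 15.2, 14.1 and 14.9, and those of the Os+bgcn arrays 9.3 to 22.3 with a median of 16.9, so that every mutant array was below every wild-type array.

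Of the 5 V1 genes that carry no paralog number, Vha26, Vha55 and Vha44 rose in both mutants and Vha13 in bgcn on the deposited scale, all of them below wild type with ribosomal centring, and VhaSFD fell. Vha26 (151930_at, 3R), the outer stalk subunit E, had signals of 948, 1188, 852, 868 and 827 in wild type, of 4486, 3323, 2904, 3544 and 2863 in bgcn, and of 1758 to 3298 with a median of 2027 in Os+bgcn. Vha55 (153041_at, 3R), subunit B of the head, had signals of 288, 264, 258, 270.1 and 336 in wild type, of 604, 615, 806, 755 and 436 in bgcn, and of 345 to 609 with a median of 512 in Os+bgcn. Vha44 (153422_at, 2R), subunit C, had signals of 499, 482, 354, 433 and 336 in wild type, of 488, 667, 851, 899 and 831 in bgcn, and of 406 to 688 with a median of 605 in Os+bgcn. Mutant and wild-type arrays were apart for Vha26 and Vha55 and overlapped for Vha44. The bgcn differences were 1.84 ± 0.18, 1.11 ± 0.16 and 0.79 ± 0.18 (adjusted p = 1.1e-08, 4.4e-06 and 0.00055), and the Os+bgcn differences 1.23 ± 0.17, 0.77 ± 0.16 and 0.45 ± 0.17 (1.6e-06, 0.00018 and 0.022). Median centring took the Os+bgcn value of Vha44 to 0.17 (adjusted p = 0.39), and it also failed to pass without Os+bgcn replicate 2 or 4 or wild-type replicate 3 or 5, at 0.38 to 0.41.

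Vha13 (144156_at, 3R), the outer stalk subunit G, had signals of 638, 520.1, 585, 403 and 484 in wild type, of 854, 694, 664, 649 and 777 in bgcn, and of 322 to 476 with a median of 438 in Os+bgcn. The bgcn arrays were the highest of the 3 groups, and Os+bgcn and wild type overlapped. It rose in bgcn by 0.46 ± 0.14 (adjusted p = 0.0059) and was at -0.30 ± 0.13 in Os+bgcn (0.053). Median centring gave 0.21 (adjusted p = 0.21) and -0.58 (adjusted p = 0.0011), and ribosomal centring -1.56 and -1.79. The Os+bgcn value also passed without bgcn replicate 1, Os+bgcn replicate 2 or 5, or wild-type replicate 4, at -0.39 to -0.30.

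VhaSFD (2L), which encodes the regulatory subunit H, was the exception among these V1 genes. Its brighter probe set (144191_at) had signals of 1073, 1129, 994, 1119 and 947 in wild type, of 429, 696, 720.5, 906 and 785 in bgcn, and of 570.3 to 738 with a median of 606 in Os+bgcn. Its dimmer probe set (148646_at) had signals of 989, 971, 874, 911 and 959 in wild type, of 237, 545, 771, 751 and 456 in bgcn, and of 498 to 906 with a median of 568 in Os+bgcn. All mutant arrays were below wild type on the brighter probe set, and on the dimmer the bgcn arrays were. The 2 probe sets differed by -0.60 ± 0.15 and -0.86 ± 0.24 in bgcn (adjusted p = 0.0018 and 0.0034), and by -0.73 ± 0.15 and -0.59 ± 0.23 in Os+bgcn (0.00016 and 0.028). The Os+bgcn call of the dimmer probe set was lost with quantile normalization (-0.34, adjusted p = 0.21), without Os+bgcn replicate 4, 5 or 6 and without wild-type replicate 1 (-0.57 to -0.52).

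**Figure D3:**
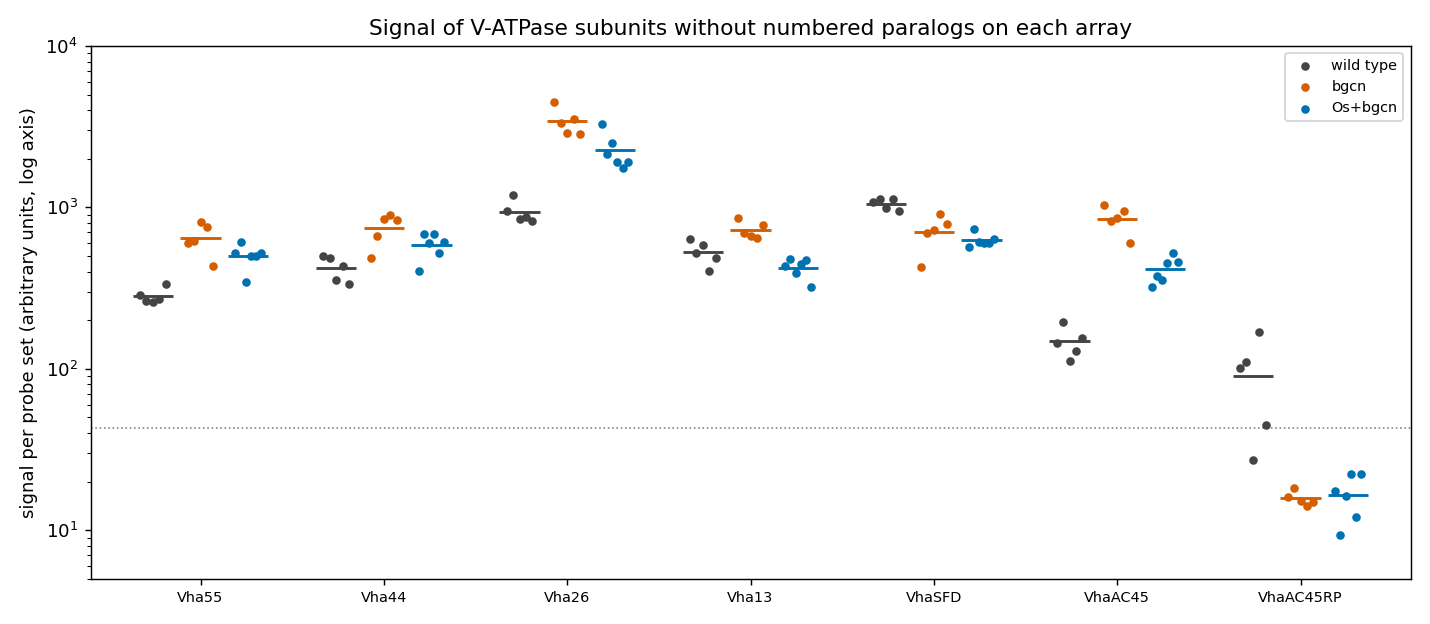
The vertical log axis is the signal per array, in arbitrary units, of the V-ATPase genes without numbered paralogs, using the brighter probe set of VhaSFD; points are arrays, horizontal bars group means and the dotted line the signal of 42.9 used for testing. VhaSFD and VhaAC45RP are highest in wild type, and Vha55, Vha44, Vha26 and VhaAC45 are higher in both mutants, a direction that turned with ribosomal centring except for VhaAC45 in bgcn.

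The log2 ratio of 2 paralogs on the same array, in which a centring of the log2 values cancels, was compared between genotypes for all 15 pairs of tested numbered paralogs of the same subunit, with an exact permutation test over arrays, two-sided, adjusted over the 15 pairs. The lettered VhaM9.7 genes were not paired. The levels of 2 probe sets were not set against each other, only the change of their ratio. Of the subunits, 6 have at least 2 tested numbered paralogs. In 5 of them (D, F, c, c'' and d), the gene numbered 1 rose and at least 1 other fell in each mutant. This split is that of the deposited scale, and with ribosomal centring the falls but not the rises held. For F the fall is that of Vha14-2 alone, and for D in bgcn that of Vha36-2 alone. The lower level of these genes was built into the testing, so the count of 5 is a description. In d the fall is that of VhaAC39-2, which reached the testing filter only with its wild-type arrays. The ratio changed in 11 pairs in bgcn and in 12 pairs in Os+bgcn, each against the same wild-type arrays. Of these pairs 3 hold Vha36-2 or Vha14-2, for which a change was built into the testing. Of the 12 pairs without them, 8 passed in bgcn and 9 in Os+bgcn. VhaAC39-1 over VhaAC39-2 is still among those that passed in each mutant.

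The log2 ratio of Vha36-1 to Vha36-2 was -2.08 ± 0.17 (SD, n = 5) in wild type, 4.69 ± 0.41 (n = 5) in bgcn and 4.38 ± 0.30 (n = 6) in Os+bgcn. The changes were 6.77 for bgcn and 6.47 for Os+bgcn, and 4.95 to 8.91 and 4.64 to 8.71 over the settings. Vha14-1 over Vha14-2 changed by 5.17 and 3.91, and by 3.53 to 7.74 and 2.51 to 5.72 over the settings. VhaPPA1-1 over VhaPPA1-2 changed by 4.42 and 3.41, at the smallest p that the exact test allows for each group size, 0.0079 and 0.0043 (adjusted p = 0.013 and 0.0072). VhaAC39-1 over VhaAC39-2 changed by 3.62 and 2.80, again with every mutant array above every wild-type array. For subunit c, the ratio of Vha16-1 to Vha16-2, Vha16-4 and Vha16-5 changed by 4.13, 4.23 and 3.98 in bgcn and by 3.53, 3.07 and 3.28 in Os+bgcn. The 3 genes Vha16-2, Vha16-4 and Vha16-5 were not shown to differ from each other in this respect: no ratio among them passed, and the changes lay between -0.46 and 0.20, with 95% limma intervals from -1.21 to 0.29 for the lowest and from -0.52 to 0.93 for the highest. Over the settings, these changes ranged from -0.76 to 0.49. Vha16-2 over Vha16-4 passed in 2 of 27 settings in each mutant, and Vha16-4 over Vha16-5 in 1 of 27 in bgcn. For subunit D, Vha36-1 over Vha36-3 changed by 1.95 in bgcn and 2.14 in Os+bgcn, and Vha36-2 over Vha36-3 by -4.81 and -4.32, with ranges over the settings of -6.76 to -3.36 and -6.16 to -3.08.

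Subunit a had the smallest changes of ratio among those that passed. Vha100-2 over Vha100-5 changed by 1.54 in bgcn (exact p = 0.016, adjusted p = 0.024) and by 1.40 in Os+bgcn (exact p = 0.0087, adjusted p = 0.013). Vha100-1 over Vha100-5 changed by 1.31 (exact p = 0.024, adjusted p = 0.032) and by 0.94 (exact p = 0.030, adjusted p = 0.038), but passed in 18 of 26 and in 17 of 26 settings. Vha100-5 is dim, and its wild-type replicate 1 was at 17.5 where the other 4 were at 55.8 or more. Vha100-1 over Vha100-2 did not pass in bgcn (-0.24) and passed in Os+bgcn (-0.46, exact p = 0.013, adjusted p = 0.018), where the limma interval of -1.04 to 0.12 held 0.

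**Figure D4:**
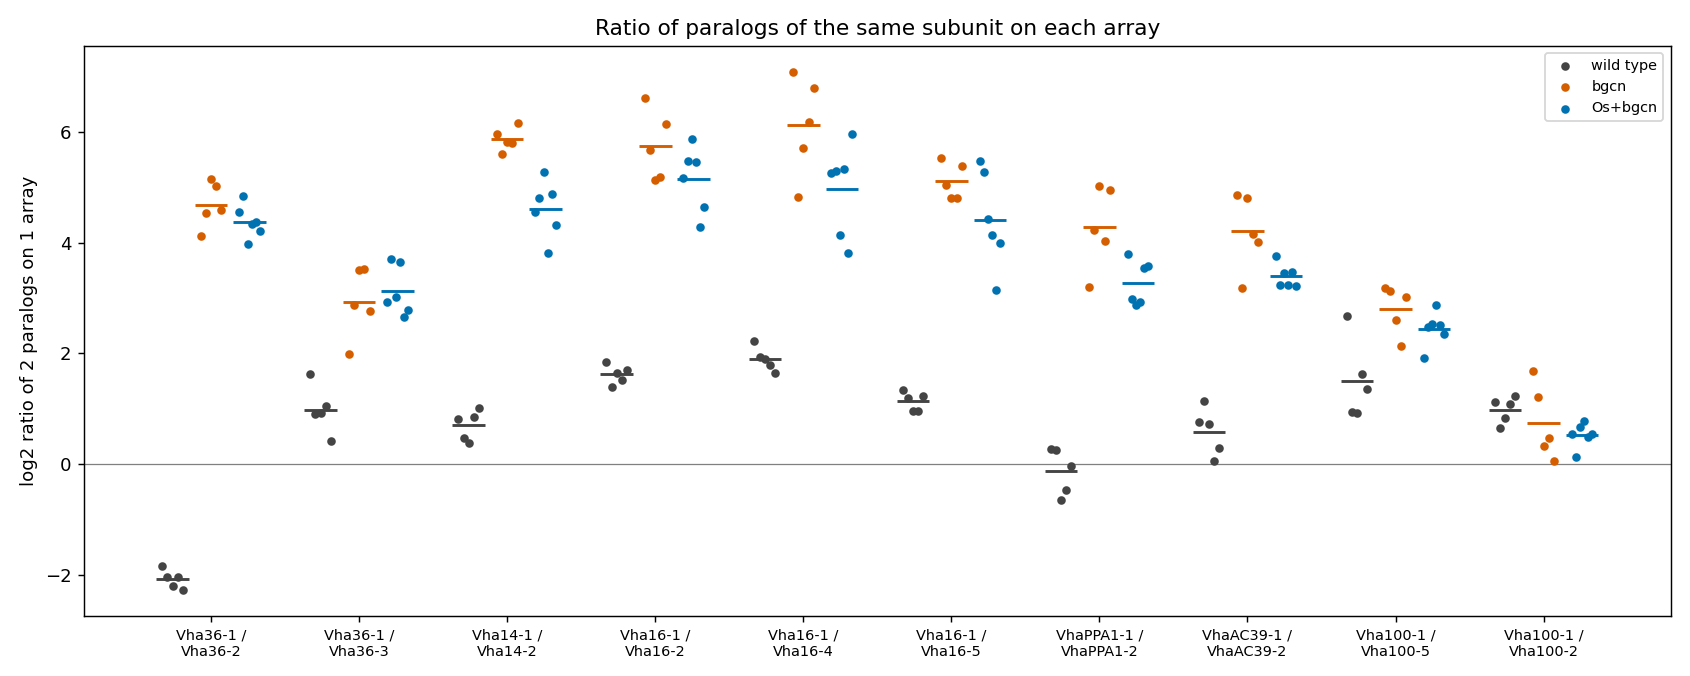
The vertical axis is the log2 ratio of 2 paralogs of the same subunit on each array, for 10 of the 15 pairs; points are arrays (5 wild type, 5 bgcn, 6 Os+bgcn) and horizontal bars group means. The wild-type ratio of Vha36-1 to Vha36-2 averages -2.08 and those of both mutants 4.69 and 4.38, and for 8 pairs, from Vha36-1 over Vha36-2 to VhaAC39-1 over VhaAC39-2, every mutant array lies above every wild-type array.

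Between the mutants, Os+bgcn against bgcn, no Vha probe set rose and 6 of 30 fell on the deposited scale (20%), where 11.6% of all tested probe sets rose and 8.91% fell, but with ribosomal centring 1 rose and none fell. In either direction 20.5% of all passed. The median difference of the 30 was -0.27 and that of all tested probe sets 0.03. The 6 genes belong to both sectors: Vha14-1 (F), Vha13 (G) and Vha26 (E) of V1, and VhaPPA1-1 (c''), VhaAC39-1 (d) and VhaAC45 of V0. Arrays did not overlap for 5 of them, all but Vha26, where 5.33% of all tested probe sets were below bgcn on every array, and none of the Vha probe sets was above bgcn on every array (7.81% of all). Vha14-1 and VhaAC45 fell at least 2-fold, as did 4.07% of all. The brighter probe set of Vha16-1 (-0.60) and VhaM9.7-b (-0.38) did not pass (adjusted p = 0.06 for each) but passed as falls in some other settings. So did Vha36-1 (-0.35), Vha44 (-0.33) and Vha55 (-0.34).

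Vha14-1 differed by -1.01 ± 0.16 (adjusted p = 0.00016), from a mean signal of 1308 in bgcn to 653 in Os+bgcn. VhaAC45 differed by -1.004 ± 0.16 (0.00015), from 853 to 415, and the brighter probe set of VhaPPA1-1 by -0.83 ± 0.14 (0.00034), from 1244 to 698. These 3 genes and Vha13, at -0.76 ± 0.13 (0.0004), kept their calls on the same probe set in every alternative other than ribosomal centring, where the 4 values were -0.48, -0.48, -0.30 and -0.24 and did not pass. VhaAC39-1 differed by -0.46 ± 0.12 (adjusted p = 0.01) and came to 0.066 with ribosomal centring. Vha26 differed by -0.61 ± 0.17 (0.014) and lost its call with quantile normalization (-0.36, adjusted p = 0.31) and without bgcn arrays 1 and 2 (-0.48, adjusted p = 0.087). The dimmer probe sets of VhaPPA1-1 and Vha16-1 were at -0.64 and -0.87 and did not pass (adjusted p = 0.23 and 0.17), and came to 0.071 and -0.078 without those arrays. Without bgcn replicate 3, both passed, at -0.98 and -1.21 (adjusted p = 0.035 and 0.047).

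Vha68-3, Vha36-2 and Vha14-2 lay below 42.9 on all mutant arrays, so no comparison between the mutants can be read for them. None of the other genes that were at least 2-fold lower in a mutant passed between them: VhaM9.7-d, VhaPPA1-2, Vha16-2, Vha16-4, Vha16-5 and VhaAC39-2 ranged from -0.46 for VhaM9.7-d to 0.55 for Vha16-4. Vha16-4 passed, at 0.90 (adjusted p = 0.04), without bgcn replicate 2, the bgcn array at 142, and VhaM9.7-d passed, at -0.62 (adjusted p = 0.031), without Os+bgcn replicate 5. No paralog ratio passed the exact test between the mutants, where the lowest adjusted p of the 15 pairs was 0.065. That pair was Vha14-1 over Vha14-2, whose change cannot be read as one of both genes, since Vha14-2 is below the testing signal in both mutants. Its exact p of 0.0043 is the smallest that the test allows there, and a single pair at that p cannot pass after adjustment over the 15 pairs. The exact test therefore cannot show that the ratios were unchanged between the mutants. A limma fit of the same ratios passed 4 pairs, Vha14-1 over Vha14-2, Vha16-1 over Vha16-4 (-1.15), VhaPPA1-1 over VhaPPA1-2 (-1.01) and VhaAC39-1 over VhaAC39-2 (-0.81). Of the bgcn arrays, 1 exceeded 42.9 for Vha16-4, 3 for VhaPPA1-2 and 1 for VhaAC39-2, and of the Os+bgcn arrays 5, 4 and 3. These ratios thus rest in part on signals near or below the testing signal.

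Markers of other tissues differed between the mutants as well. On bgcn and Os+bgcn arrays, the accessory gland sum was 4366 to 25560 and 434 to 3492, the midgut sum 1325 to 17505 and 647 to 1130, the hemocyte sum (17 of 17 on the array) 3634 to 5192 and 2314 to 3084, and the muscle sum (15 of 19) 5466 to 7597 and 3286 to 5010. Cyst cell markers (9 of 12) went the other way, 1039 to 1264 against 2882 to 3672. The part of these tissues in the Vha differences was not tested. Without bgcn arrays 1 and 2 the number of falls was 7 in place of 6, and Vha14-1, VhaAC45, VhaPPA1-1, Vha13 and VhaAC39-1 were at -1.06, -0.92, -0.78, -0.70 and -0.50. The remaining bgcn arrays still had accessory gland sums of 4366 to 12586 and midgut sums of 4042 to 17505, above those of every Os+bgcn array.

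**Figure D5:**
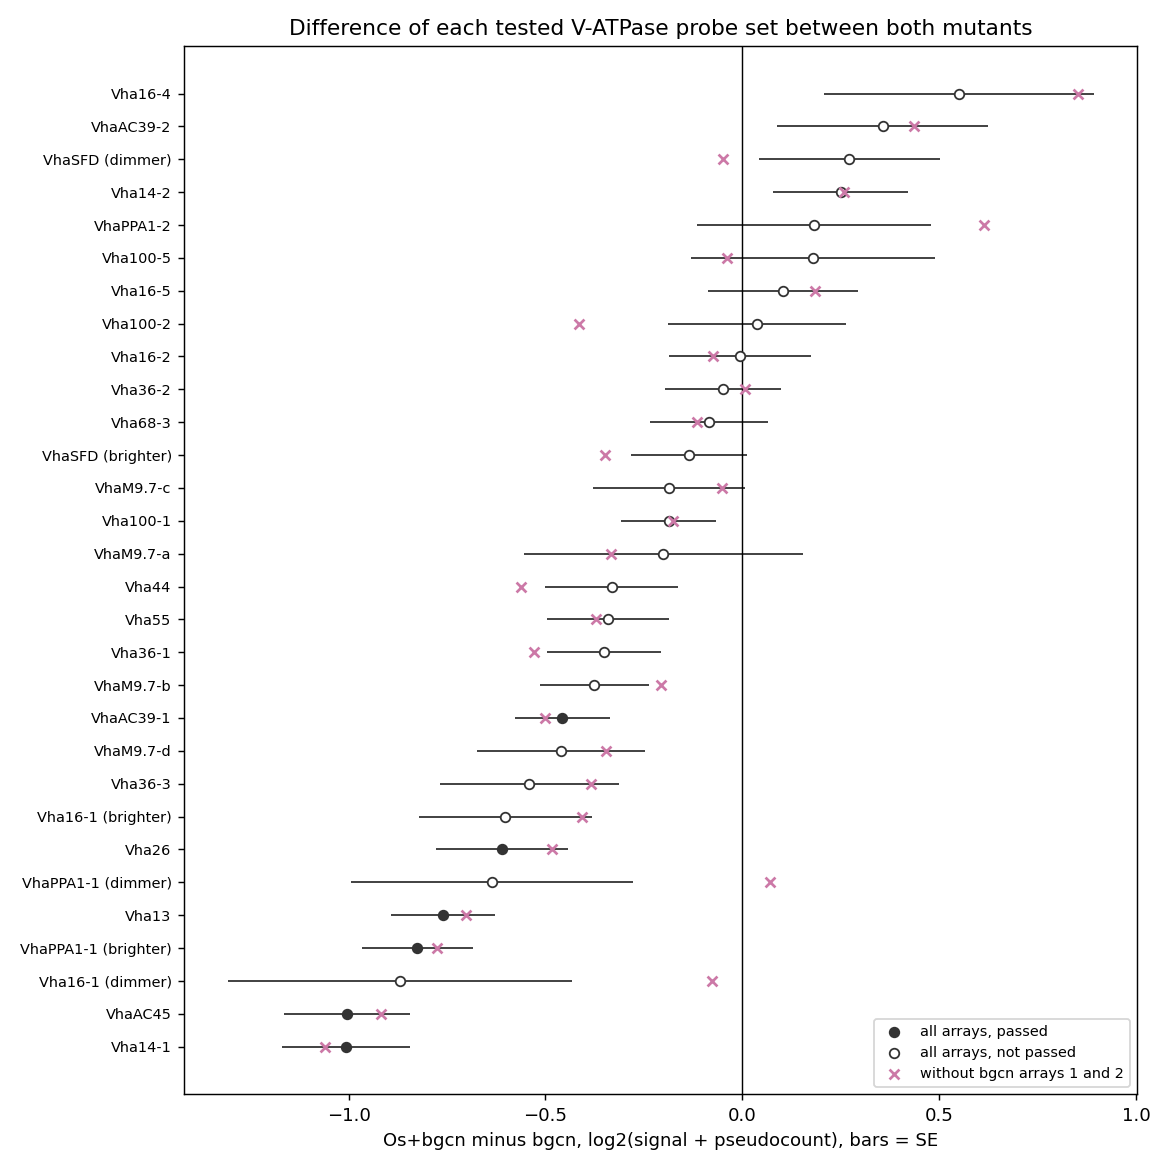
The horizontal axis is the difference Os+bgcn minus bgcn in log2(signal + pseudocount) for the 30 tested Vha probe sets, with bars for the standard error; filled circles passed, open circles did not, and crosses give the value without bgcn arrays 1 and 2. The 6 filled circles lie between -1.01 and -0.46, a side that none keeps past the threshold with ribosomal centring, and the crosses of the dimmer probe sets of Vha16-1 and VhaPPA1-1 lie near 0.

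Genes that assemble or regulate the pump, or that sense its state for TOR signalling, were counted from a list of 15, of which 11 were on the array and 9 were tested. In bgcn 8 of 9 rose and none fell, in Os+bgcn 8 of 9 rose and none fell, and the medians were 1.42 and 1.31, where 47.2% and 47.3% of all tested probe sets rose with medians of 0.46 and 0.43, but with ribosomal centring 0 and 1 rose, 3 fell in each, and the medians were -0.60 and -0.18. ATP6AP2, an accessory protein of the pump, had a mean signal of 447 ± 41.7 (SD, n = 5) in wild type, 956 ± 225 (n = 5) in bgcn and 624 ± 145 (n = 6) in Os+bgcn. Its differences from wild type were 1.04 ± 0.17 (adjusted p = 2.2e-05) and 0.44 ± 0.17 (0.023), and -0.98 and -1.06 with ribosomal centring. Nprl2 (1.89), mTor (1.69) and RagC-D (1.65) had the largest rises of the list in bgcn, and RagC-D (2.44), mTor (2.03) and Nprl2 (1.73) in Os+bgcn, and with ribosomal centring the bgcn values were -0.13, -0.33 and -0.37. RagC-D, a GTPase that carries amino acid signals to TOR at the lysosome, also rose with ribosomal centring in Os+bgcn (0.95, adjusted p = 0.0065). Between the mutants 1 rose and 3 fell (11.6% and 8.91% of all): RagC-D by 0.79 ± 0.17 (adjusted p = 0.0021), and CG5969, ATP6AP2 and Lamtor3 by -0.61, -0.60 and -0.42 (adjusted p = 0.0026, 0.014 and 0.037), of which the falls did not pass with ribosomal centring.

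Lysosome and endosome genes, the organelles that the pump acidifies, numbered 52 on the list, 41 on the array and 39 tested. In bgcn 26 rose and 1 fell (median 1.07), and in Os+bgcn 26 rose and 2 fell (median 0.82), where 47.2% and 22.6%, then 47.3% and 24.2%, of all tested probe sets did so, but with ribosomal centring none rose, 25 and 17 fell, and the medians were -0.95 and -0.68. Hexo2, a beta-hexosaminidase, rose by 2.77 ± 0.22 in bgcn and 1.90 ± 0.21 in Os+bgcn, and was at 0.75 and 0.40 with ribosomal centring, not passing. LManII, a lysosomal mannosidase, and CtsL1, a cathepsin, rose by 2.34 and 2.15 in bgcn, and Ppt1 and Vps39 by 2.13 and 2.00 in Os+bgcn, none of which passed with ribosomal centring. Between the mutants 1 rose and 11 fell (median -0.17), against 11.6% and 8.91% of all, and with ribosomal centring 6 rose and 1 fell. Npc2a, a sterol carrier, differed by -1.35 ± 0.19 (adjusted p = 3.8e-05), and passed with ribosomal centring too (-0.83, adjusted p = 0.046), while Cln3 (-1.13) and Cln7 (-0.91) did not.

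Positions on the chromosomes did not enter the choice. The 29 genes lie on 2L (4), 2R (7), 3L (4), 3R (12) and the X (2). The X holds Vha36-3 and VhaAC39-1, which differed from wild type in opposite directions in Os+bgcn on the deposited scale. Vha68-3 lies next to Vha68-2 and has 1 protein-coding gene between it and Vha68-1, and Vha16-2 lies next to Vha16-3, but the neighbours were not analysed here.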

How the data were processed

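Testis RNA, about 5 µg per sample, was hybridised to 16 single-colour Affymetrix arrays. The authors deposited linear signal intensity values, 1 per probe set, made with MAS5 per the submitters' processing notes, which name no version. Groups follow the titles. Probe sets were named through the platform's gene table, where 12443 carry 1 symbol, 327 several and 1196 none.

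Values were taken as log2 after adding 18.8, the 25th percentile of all values. The signal of 42.9 required for testing is their 40th percentile. limma 3.58.1 in R 4.3.3 fitted 1 coefficient per group to all 16 arrays with an intensity trend, with Benjamini-Hochberg adjustment over the 10422 tested probe sets, after a test on simulated data. Paralog pairs used an exact permutation test on the brighter probe set of each gene, two-sided, as the smaller tail doubled. Errors are SE for differences and SD for signals and ratios.

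All Vha probe sets are described, and from other lists up to 3 passing genes with the largest difference per comparison. The members and all lists were chosen with earlier results of these data known. Alternatives were quantile normalization, centring on array medians or on ribosomal protein genes, another pseudocount (75.2, or none with a floor of 1), no filter or a stricter one (98.6), no trend, only the groups compared, a replicate block, each array left out, and bgcn arrays 1 and 2 left out. Same-numbered arrays of different groups did not deviate together more than others (correlations -0.11 to 0.20, against -0.20 to 0.21 for different numbers). No pairing by number was seen, which does not exclude a shared batch, and the labels do not say what the numbers mark. The planned promoter motif search was not run, and no sequences are printed. The number of arrays limits the precision. Tables were made with Python 3.11.15 (pandas 2.3.3) and figures with matplotlib 3.10.9.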

Additional observations from a re-analysis of the deposited data

Results flagged for a closer look

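Of 96 groups of arrays of a Vha probe set, 6 held an array far from the others of its group by Dixon's test, a number that chance gives at about 1 in 20 groups. Vha16-4 was at 141.5 on bgcn replicate 2 and at 21.8 to 38.7 on the other bgcn arrays. Vha16-2 was at 40.8 on bgcn replicate 1 and at 61.0 to 70.5 on the others. Vha68-3 was at 8.6 on bgcn replicate 5 and at 1.4 to 3.1 on the others, and Vha36-2 at 8.9 on Os+bgcn replicate 3 and at 4.4 to 5.0 on the others, all far below the signal of 42.9 needed for testing. Vha100-5 was at 92.3 on Os+bgcn replicate 1 and at 45.2 to 58.0 on the others. Vha55 was at 345.2 on Os+bgcn replicate 3 and at 497 to 609 on the others.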

How the results depend on the processing

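Centring on ribosomal protein genes gave 0 Vha probe sets higher and 21 lower in bgcn against wild type, 0 higher in Os+bgcn against wild type, and 1 higher and 0 lower in Os+bgcn against bgcn. It reversed 28 differences, the cause of which is the shift of all values by that centring. In bgcn they became -1.03 (Vha100-1), -0.80 (Vha100-2), -1.56 (Vha13), -0.15 (Vha14-1), -0.015 and -0.41 (Vha16-1, brighter and dimmer), -0.18 (Vha26), -0.52 (Vha36-1), -1.23 (Vha44), -0.91 (Vha55), -0.060 (VhaAC39-1), -0.67 (VhaM9.7-b), -0.93 (VhaM9.7-c), and -0.70 and -0.65 (VhaPPA1-1). In Os+bgcn they became -0.70 (Vha100-1), -0.24 (Vha100-2), -0.64 (Vha14-1), -0.094 (Vha16-1, brighter), -0.26 (Vha26), -0.34 (Vha36-1), -1.04 (Vha44), -0.73 (Vha55), -0.11 (VhaAC45), -0.53 (VhaM9.7-b), -0.60 (VhaM9.7-c) and -1.003 (VhaPPA1-1, brighter), and between the mutants 0.066 (VhaAC39-1). Other settings reversed none. Leaving out 1 array gave 16 higher and 11 to 12 lower Vha probe sets in bgcn, 12 to 14 and 11 to 13 in Os+bgcn, and 0 to 1 (1 without bgcn replicate 2, namely Vha16-4) and 6 to 9 between the mutants, and 7056 to 7318, 7258 to 7569 and 1700 to 2130 of all probe sets, against 7277, 7446 and 2141. Paralog pairs that passed then numbered 10 to 12, 11 to 13 and 0. The 0 between the mutants is limited by the smallest p that the exact test allows. The stricter filter left fewer pairs, of which 7 passed in bgcn and 1 between the mutants. There, a 4 times larger pseudocount passed 2 pairs, the cause of which was not tested, and limma passed 4, both without and with a replicate block, the latter fit having been added after seeing the data. With the replicate block, 7251, 7308 and 1749 of all probe sets passed. It changed 1 Vha call, that of the dimmer VhaSFD probe set in Os+bgcn (-0.52, adjusted p = 0.071). Low signals limit Vha68-3, Vha36-2 and Vha14-2, whose mutant levels have no order.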
